A study of Mus musculus with 16 samples.

Results

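The genes of the brain matrix that builds perineuronal nets were followed in RNA of cortex and cerebellum: the lecticans *Acan*, *Bcan*, *Ncan* and *Vcan*, the hyaluronan and proteoglycan link proteins *Hapln1*, *Hapln2*, *Hapln3* and *Hapln4*, and tenascin-R, *Tnr*. These 9 genes were taken by their names from the 37583 genes of the deposited files, and each name matched 1 Ensembl gene. All 9 passed the low-count filter in every comparison. The series holds 16 libraries of C57BL/6J mice, 1 each of cortex and of cerebellum from 4 wild-type mice and from 4 mice that carry the Slc39a8 A391T (A393T) variant, a point mutation in a manganese transporter. The wild-type mice were males 12 weeks old, and their RNA came from the hemisphere opposite to the one used for glycan analysis. Age and sex of the A391T mice were not given in the sources used here. Libraries are named as labelled, by region and mouse: CTX447, CTX448, CTX479 and CTX480 for wild-type cortex, CTX445, CTX446, CTX461 and CTX462 for A391T cortex, and CBLM with the same mouse for cerebellum. Values per library are given below in that order. The cortex tissue was labelled only as cortex, and the study's methods name the frontal cortex.

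Lecticans are chondroitin sulfate proteoglycans that bind hyaluronan at one end and tenascins at the other. Link proteins lock the lectican to the hyaluronan chain, and tenascin-R, a trimer, cross-links the far ends, which together gives the lattice known as the perineuronal net. In cortex such nets are best known around fast-spiking parvalbumin interneurons, and in cerebellum around the large neurons of the deep nuclei. The same gene families also serve other matrix, in the neuropil and at nodes of Ranvier.

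Counts on genes ran from 20813432 to 30497206 per library with a median of 24488842, so that even the lowest member count, 14 reads of *Hapln3*, was above the limit of 3 counts that a count of 0 allows. Labels of tissue were checked against marker genes. All 8 markers of cortical neurons were lower and all 10 markers of cerebellar neurons were higher in wild-type cerebellum than in cortex, past both criteria used below. All 8 striatal markers were lower in wild-type cerebellum at an adjusted p under 0.05. Their summed level ran from 1066 to 1357 TPM (transcripts scaled by gene length and library total) in wild-type cortex. In A391T cortex it ran more widely, from 420 to 1498 TPM. Summed choroid plexus markers ran from 51.4 to 8133 TPM among cerebellum libraries, with CBLM462 (A391T) at 51.4 and CBLM479 (wild type) at 53.4 far below the other 6. *Slc39a8* differed between genotypes by a log2 fold change of 0.17 ± 0.18 (SE) in cortex and of -0.03 ± 0.13 in cerebellum. A point mutation need not alter the RNA level, so that this gene does not check the labels.

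Several libraries stood apart before any group was compared. For each library, the median deviation from the region mean was taken over the longest decile of genes (at least 8574 bases) and over the shortest decile (at most 1507 bases), and the difference is called the length trend. It was -0.37 (log2) in CTX480 (wild type) and -0.37 in CBLM445 (A391T), and between -0.09 and 0.20 in the other 14 libraries. Differences between groups that rest on these 2 libraries are given below with and without them. The deposited RPKM table also names 8 of its 16 columns, those of 4 mice, for the opposite genotype from the count files. The names of the count files, which are those of the sample labels, were used, and results under the other names follow where they change a call.

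The 9 genes spanned more than 2 orders of magnitude in level per length. *Bcan*, brevican, the brain-specific lectican made by glia and neurons, was highest in all 16 libraries, at 354 ± 7.05 TPM (SD, n = 4) in wild-type cortex and 299.9 ± 8.77 in wild-type cerebellum. That placed it above 98.2% and 97.8% of expressed genes. In wild-type cortex it was followed by *Ncan* at 155 ± 17.7, *Hapln4* at 149 ± 19.5, *Tnr* at 38.2 ± 21.8 and *Hapln2* at 34.0 ± 2.78 TPM. *Hapln1* at 15.2 ± 1.01, *Vcan* at 5.21 ± 0.891, *Acan* at 1.97 ± 0.552 and *Hapln3* at 1.79 ± 0.381 TPM came last. In 3 pairs of neighbours in this order the ranges overlapped, namely *Ncan* and *Hapln4*, *Tnr* and *Hapln2*, and *Acan* and *Hapln3*. In wild-type cerebellum the order was *Bcan*, *Hapln4* (207 ± 16.8), *Hapln2* (62.1 ± 7.67), *Tnr* (30.8 ± 10.5), *Ncan* (13.9 ± 2.36), *Vcan* (8.12 ± 0.735), *Hapln1* (4.16 ± 0.533), *Acan* (1.51 ± 0.518) and *Hapln3* (1.03 ± 0.293 TPM). Only the last neighbours, *Acan* and *Hapln3*, overlapped there. *Acan*, the lectican most used to mark nets, was thus among the lowest of the family in whole tissue RNA, above 41.1% of expressed genes in wild-type cortex and 38.0% in wild-type cerebellum.

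**Figure D1:**
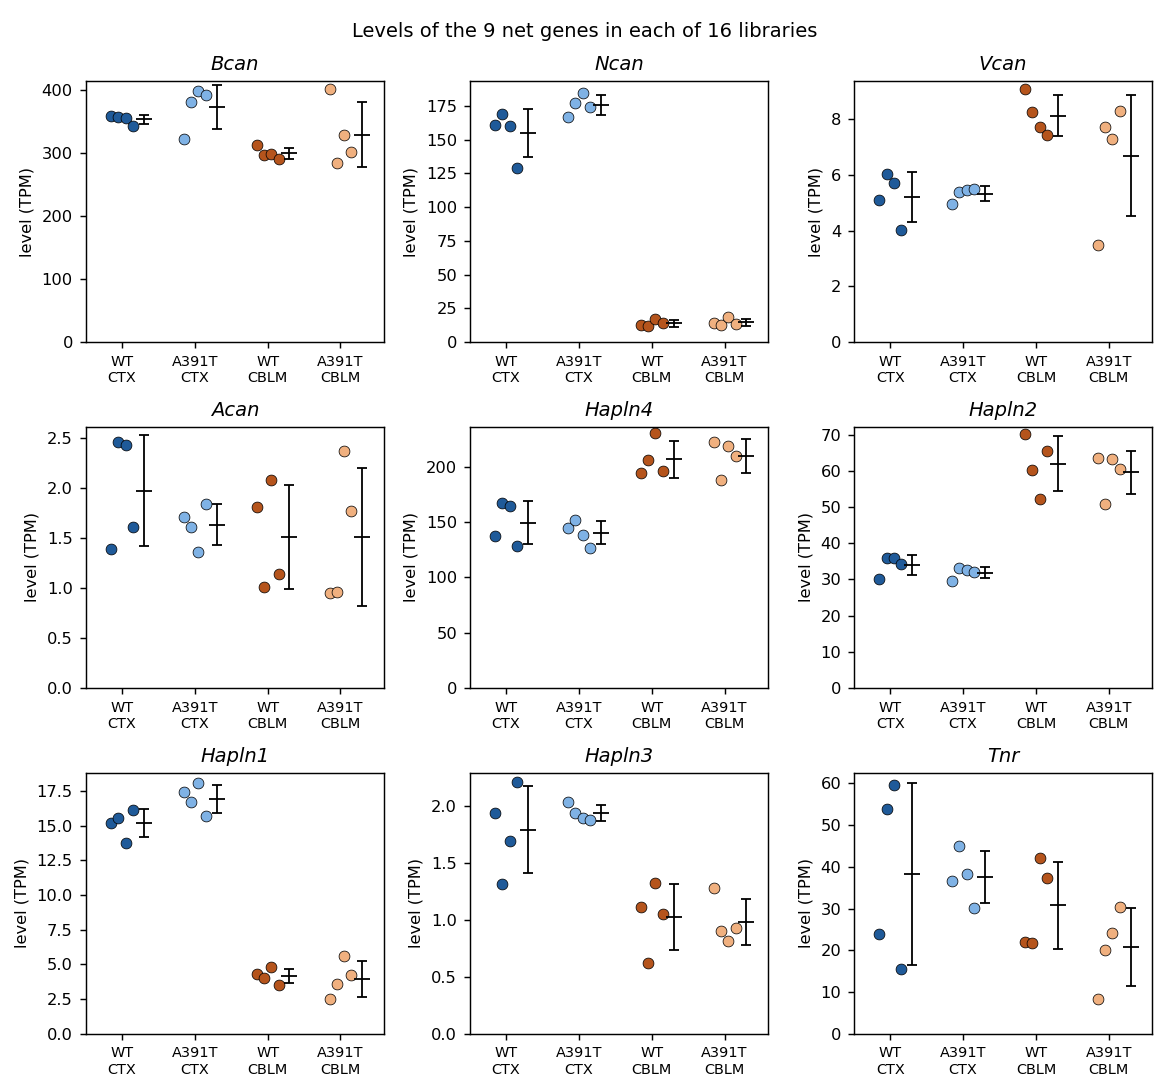
Level (TPM) of each of the 9 genes in the 16 libraries, as points by group (WT, wild type; CTX, cortex; CBLM, cerebellum), with the mean and SD of 4 libraries beside them and axes that start at 0. *Ncan* and *Hapln1* lay far lower in every cerebellum library, *Hapln2* and *Hapln4* lay higher, and *Tnr* spread from 15.4 to 59.5 TPM within wild-type cortex alone.

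The arrangement of these genes in the genome is shared by 8 of the 9 and was not used to choose them. In the NCBIM37 assembly each lectican gene lies next to 1 link protein gene, with no annotated gene between them. *Acan* (chr7:86198369-86259985, plus strand) and *Hapln3* (chr7:86260026-86275895, minus strand) end toward each other across 40 bases. *Ncan* (chr8:72616984-72644772, minus) and *Hapln4* (chr8:72607428-72614761, plus) also converge, across 2222 bases, as do *Vcan* (chr13:89794915-89882117, minus) and *Hapln1* (chr13:89680241-89751437, plus) across 43477 bases. *Bcan* (chr3:87791453-87804278) and *Hapln2* (chr3:87825672-87831505) both lie on the minus strand, 21393 bases apart. *Tnr* (chr1:161667641-161855053, plus) has no such partner. No annotated exon base of the 9 genes was shared with another annotated gene, so that no such overlap could mix reads counted without strand. The gene lengths deposited for *Vcan* and *Hapln2* are longer than the exons checked here. Reads that run past an annotated gene end were not examined.

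Promoter sequences were matched in the RefSeq table (GRCm38.p6) for 8 of the 9 genes, all but *Hapln4*. The 250 bases before the start are printed for the members with the largest regional differences, *Ncan* and *Hapln1*, both lower in cerebellum, and *Hapln2*, the one with the largest difference in the other direction. Capitals mark 5 short words searched on both strands: TATAAA (the TATA box), CCAAT (the CCAAT box), GGGCGG (the GC box), CAGCTG (an E-box) and AACAAT (a word found in SOX factor sites).
Ncan (chr8:70120845-70121094, minus strand): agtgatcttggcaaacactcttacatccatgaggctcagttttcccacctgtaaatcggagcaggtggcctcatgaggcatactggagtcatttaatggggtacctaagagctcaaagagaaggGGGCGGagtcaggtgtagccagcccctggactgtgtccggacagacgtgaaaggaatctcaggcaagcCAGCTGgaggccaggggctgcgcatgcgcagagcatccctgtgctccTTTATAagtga
Hapln1 (chr13:89540386-89540635, plus strand): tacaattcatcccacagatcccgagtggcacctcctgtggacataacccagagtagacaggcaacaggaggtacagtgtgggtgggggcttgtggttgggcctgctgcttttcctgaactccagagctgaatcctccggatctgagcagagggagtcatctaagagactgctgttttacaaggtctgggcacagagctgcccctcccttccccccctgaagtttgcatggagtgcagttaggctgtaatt
Hapln2 (chr3:88027512-88027761, minus strand): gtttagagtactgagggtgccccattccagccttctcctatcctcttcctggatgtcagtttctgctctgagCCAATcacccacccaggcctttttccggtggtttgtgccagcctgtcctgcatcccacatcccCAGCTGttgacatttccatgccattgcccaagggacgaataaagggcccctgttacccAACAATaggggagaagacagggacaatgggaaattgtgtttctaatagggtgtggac
The *Ncan* window holds a GC box, an E-box and, 11 bases before the start, a reversed TATAAA. The *Hapln1* window holds none of the 5 words, although its regional difference has the same direction as that of *Ncan*. The *Hapln2* window holds a CCAAT box, an E-box and an AACAAT word. Of all 32851 promoters in the table, 12.4% hold TATAAA, 33.85% CCAAT, 32.7% GGGCGG, 13% CAGCTG and 9.42% AACAAT in a window of that length, beside 2, 4, 4, 3 and 2 of the 8 members. In *Hapln3* TATAAA and AACAAT overlap. The number of CpG dinucleotides was 26 in *Acan*, 16 in *Bcan*, 10 in *Vcan*, 8 in *Hapln3*, 6 in *Ncan* and 2 each in *Hapln1*, *Hapln2* and *Tnr*, beside a median of 6 over all promoters. A match is a description of the letters and does not show a bound factor.

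The first comparison asked how the regions differ in wild-type mice, the question for which the reporting study used them. *Ncan* and *Hapln1* fell by more than 2-fold from cortex to cerebellum, *Hapln2*, *Hapln4* and *Vcan* rose by smaller factors, and *Hapln3* and *Bcan* fell by smaller factors. Counts were tested with the quasi-likelihood test of edgeR, and p was adjusted by Benjamini-Hochberg across the 16040 genes that passed the filter. By this test 7 of 9 members passed an adjusted p under 0.05, where 67.8% of all genes did (34.7% higher and 33.1% lower), and 2 of 9 also differed at least 2-fold, where 24.7% of all genes did. Both of the latter were lower in cerebellum, as were 14.2% of all genes at that criterion. These shares are near the background of a comparison in which most genes differ. The median log2 fold change of the 9 members was -0.46, beside 0.02 over all genes tested. In bulk tissue, fewer cells of a type and less RNA per cell cannot be told apart, and this holds for every difference below.

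*Ncan*, neurocan, a lectican best known from the developing brain and made by neurons and astrocytes, had the largest difference of the family. Its level was 161, 169, 160 and 129 TPM in wild-type cortex, and 12.4, 12.0, 17.2 and 14.1 TPM in cerebellum of the same mice. The highest cerebellum library lay far below the lowest cortex library. The fold change was 12.4 (log2 -3.63 ± 0.12 SE, 95% interval -3.89 to -3.37, adjusted p = 4.7e-10 by edgeR). In A391T mice the levels were 167, 178, 185 and 174 TPM in cortex and 14.0, 12.9, 18.4 and 13.4 TPM in cerebellum. That gave a log2 fold change of -3.69 ± 0.12, and no group overlapped another region's.

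*Bcan* fell far less, from 343 to 359 TPM in wild-type cortex to 291 to 312 TPM in cerebellum (log2 -0.39 ± 0.05, adjusted p = 5.6e-05 by edgeR). The ranges did not overlap in wild-type mice. In A391T mice they did, at 322 to 398 TPM in cortex and 285 to 402 TPM in cerebellum, and the difference of -0.27 ± 0.13 did not pass the test (adjusted p = 0.104). The highest A391T cerebellum value, 402 TPM, came from CBLM445, one of the 2 libraries set apart above. Without that library the log2 fold change in A391T mice was -0.42 with an adjusted p of 0.000295.

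*Vcan*, versican, which oligodendrocyte precursors and vessels make and which is found at nodes of Ranvier, was higher in wild-type cerebellum, at 7.42 to 9.09 TPM against 4.02 to 6.04 TPM in cortex (log2 0.49 ± 0.12, adjusted p = 0.00325 by edgeR). In A391T mice the difference was 0.21 ± 0.20 and missed the threshold (adjusted p = 0.385). CBLM445 held 3.49 TPM of *Vcan* and the other 3 A391T cerebellum libraries held 7.27 to 8.29 TPM. Without it the log2 fold change was 0.41 with an adjusted p of 0.000115, and the other single omissions gave 0.10 (without CBLM462) or more. *Acan*, aggrecan, the large lectican that organises cortical nets, did not pass the test in either genotype. Its difference was -0.54 ± 0.25 in wild type (95% interval -1.10 to 0.02, adjusted p = 0.082) and -0.24 ± 0.27 in A391T (-0.85 to 0.38, adjusted p = 0.475). It had 47 to 145 reads per library, and the wild-type interval includes a 2-fold lower level in cerebellum. Leaving out CTX447 or CBLM479 brought the wild-type difference past an adjusted p of 0.05, at -0.67 and -0.74. Over all single omissions the wild-type value ran from -0.74 to -0.38 and the A391T value from -0.52 to -0.06, and under the names of the RPKM table the wild-type value was -0.12.

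Among the link proteins, *Hapln1*, which stabilises the bond of lecticans to hyaluronan and is needed for regular cortical nets, differed most. It stood at 15.2, 15.6, 13.8 and 16.1 TPM in wild-type cortex and 4.27, 4.01, 4.82 and 3.54 TPM in cerebellum. No cortex library came near a cerebellum library, and the fold change was 4.04 (log2 -2.02 ± 0.11, 95% interval -2.25 to -1.78, adjusted p = 1.9e-08 by edgeR). In A391T mice it stood at 17.4, 16.7, 18.0 and 15.7 TPM in cortex and at 2.49, 3.56, 5.60 and 4.23 TPM in cerebellum. The 4.63-fold difference there (log2 -2.21 ± 0.18) held in the same direction in every mouse.

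*Hapln2*, also known as Bral1, a link protein of oligodendrocytes that sits at nodes of Ranvier, moved the other way. Its levels were 30.0, 35.9, 36.0 and 34.2 TPM in wild-type cortex and 70.2, 60.2, 52.3 and 65.5 TPM in cerebellum. In A391T mice they were 29.6, 33.0, 32.7 and 32.1 TPM in cortex and 63.7, 51.0, 63.3 and 60.5 TPM in cerebellum. Every cerebellum library exceeded every cortex library, with log2 fold changes of 0.72 ± 0.10 (adjusted p = 5.1e-05 by edgeR) and 0.81 ± 0.10 (adjusted p = 4.6e-05), short of 2-fold. *Hapln4*, or Bral2, the link protein of hindbrain and cerebellar nuclei nets, was also higher in cerebellum. It rose from 128 to 167 TPM in wild-type cortex to 194 to 231 TPM in cerebellum (log2 0.32 ± 0.09, adjusted p = 0.0068), and from 127 to 152 to 189 to 222 TPM in A391T mice (0.48 ± 0.09, adjusted p = 0.00078).

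*Hapln3*, a link protein known mainly from tissues other than brain, was the lowest of the link proteins. It stood at 1.94, 1.32, 1.70 and 2.22 TPM in wild-type cortex and 1.11, 0.627, 1.33 and 1.05 TPM in cerebellum. The lowest cortex library lay just below the highest cerebellum library per length, and the ranges did not overlap in CPM (counts scaled to the library total). The log2 fold change was -0.94 ± 0.25 in wild type (adjusted p = 0.0054 by edgeR) and -1.06 ± 0.19 in A391T mice (adjusted p = 0.00081). The first was just short of 2-fold and the second just past it. Without CTX448 or CBLM479 the wild-type value was -1.08 or -1.10 and past both criteria. The A391T value was -0.998 without CBLM446 and -0.96 without CBLM461, short of 2-fold in both fits. With 14 to 50 reads per library this gene has the widest counting error of the 9.

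*Tnr*, tenascin-R, made by oligodendrocytes and some neurons, did not pass the regional test in wild-type mice and passed it in A391T mice. It stood at 24.0, 53.9, 59.5 and 15.4 TPM in wild-type cortex and 22.0, 21.7, 42.1 and 37.3 TPM in cerebellum, so that the regions overlapped widely. The log2 fold change was -0.46 ± 0.37 (95% interval -1.29 to 0.36, adjusted p = 0.29 by edgeR). In A391T mice it stood at 36.6, 45.1, 38.4 and 30.1 TPM in cortex and at 8.30, 20.2, 24.2 and 30.4 TPM in cerebellum. Per length, the lowest cortex library lay just below the highest cerebellum library, while the CPM did not overlap. The log2 fold change of -0.98 ± 0.29 passed the test (adjusted p = 0.0145) just short of 2-fold. With the mouse as a block it was -1.07 and past both criteria, which made 4 of 9 members in A391T mice. Without CBLM445 it was -0.72 (adjusted p = 0.00056), and without CTX480 the wild-type value was -0.72 with an adjusted p of 0.047. Over all single omissions the wild-type value ran from -0.72 to -0.19 (without CTX479; -0.25 without CTX448) and the A391T value from -1.21 (without CBLM462) to -0.72, past 2-fold also without CTX462 or CBLM461.

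**Figure D2:**
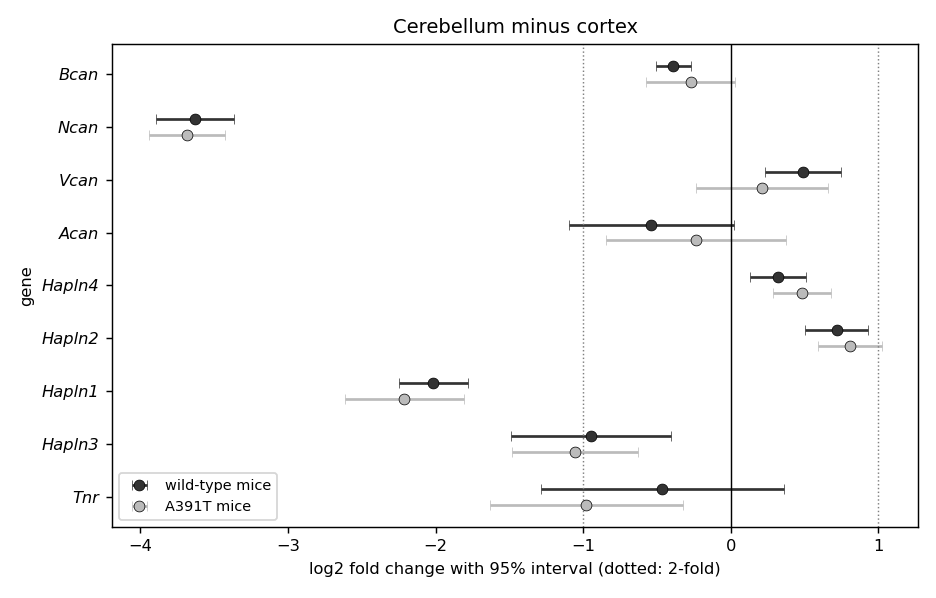
Log2 fold change of cerebellum over cortex for each of the 9 genes, with 95% intervals from edgeR, in wild-type mice (dark) and A391T mice (light, 4 mice each), and 2-fold marked by dotted lines. *Ncan* and *Hapln1* lie beyond 2-fold in both genotypes, the intervals of *Hapln3* and *Tnr* in both genotypes, of *Acan* in wild type and of *Hapln2* in A391T mice cross a 2-fold line, and all 9 genes keep their sign.

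In A391T mice, then, 6 of 9 members passed an adjusted p under 0.05, where 62.8% of the 16005 genes tested did (31.6% higher and 31.3% lower), and 3 of 9 also differed at least 2-fold, where 24.7% of all genes did. The 3 were *Ncan*, *Hapln1* and *Hapln3*, all lower in cerebellum, as were 14.9% of all genes at that criterion. The sign of the regional difference was the same in both genotypes for all 9 genes. The interaction test of edgeR, which asks whether the regional difference itself differs between genotypes, called 0 of 9 members, where 0% of 16589 genes were called (805 at an unadjusted p under 0.05, and 1 by DESeq2). No member had an unadjusted p under 0.05, and DESeq2 also called none. The largest estimates were -0.50 for *Tnr* (95% interval -1.60 to 0.60) and 0.32 for *Acan* (-0.52 to 1.15), whose intervals leave room for differences of 2-fold. Both changed sign under alternatives, *Tnr* to 0.17 with the length trend as a covariate, and *Acan* to -0.58 under the names of the RPKM table and to -0.35 with only the mice whose names match. For *Ncan*, *Bcan*, *Hapln2* and *Hapln4* the interval reached no further than 0.46 from 0.

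The neighbouring pairs were set side by side. In wild-type mice 3 of the 4 pairs of lectican and link protein had opposite signs with both genes past an adjusted p of 0.05. *Ncan* fell while its neighbour *Hapln4*, 2222 bases away, rose. *Vcan* rose while *Hapln1* fell, and *Bcan* fell while *Hapln2* rose. In *Acan* and *Hapln3*, the closest pair, both estimates were negative, at -0.54 and -0.94. No share was computed over other neighbouring genes, so that the count of pairs is a description only. In A391T mice the signs were the same, and in 1 of the 4 pairs, *Ncan* and *Hapln4*, the signs were opposite with both genes past the test. Ratios of neighbours were also taken in single libraries. The ratio of *Hapln4* to *Ncan* ran from 0.853 to 1.03 in wild-type cortex and from 13.4 to 17.2 in cerebellum, and the ratio of *Hapln1* to *Vcan* from 2.41 to 4.01 and from 0.470 to 0.625. The ratio of *Hapln2* to *Bcan* ran from 0.0837 to 0.101 and from 0.175 to 0.225. That of *Hapln3* to *Acan* overlapped between the regions, at 0.536 to 1.40 and 0.612 to 0.921.

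The makeup of each family differed between the regions. Among the lecticans of wild-type cortex *Bcan* held 68.6% ± 2.19 (SD, n = 4) of the summed TPM and *Ncan* 30.0% ± 2.03, and the rest was *Vcan* at 1.01% and *Acan* at 0.381%. In cerebellum *Bcan* held 92.7% ± 0.703, *Ncan* 4.31% ± 0.738, *Vcan* 2.51% ± 0.172 and *Acan* 0.465% ± 0.151. In A391T mice *Ncan* held 31.7% ± 1.37 in cortex and 4.20% ± 0.743 in cerebellum. These shares depend on dividing by gene length. As shares of reads *Ncan* held 47.0% of wild-type cortex and 8.20% of wild-type cerebellum, since its gene model is 7180 bases long and that of *Bcan* 3253. *Vcan*, with the longest gene model, held 3.59% and 10.9% of reads, above *Ncan* in wild-type cerebellum, where its TPM share was the lower one.

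Among the link proteins *Hapln4* held a nearly constant share, 74.4% ± 2.45 of wild-type cortex and 75.4% ± 3.38 of wild-type cerebellum, and 73.4% ± 1.47 and 76.5% ± 0.615 in A391T mice. The share of *Hapln1* was 7.65% ± 1.14 in wild-type cortex and 1.51% ± 0.144 in cerebellum, and that of *Hapln2* 17.0% ± 1.28 and 22.7% ± 3.47. *Hapln4* thus exceeded *Hapln1* by 7.95 to 12.0 times in wild-type cortex and by 45.5 to 55.4 times in cerebellum. Summed link proteins came to 38.8% ± 2.94 of summed lecticans in wild-type cortex and 84.8% ± 3.42 in cerebellum, and to 34.6% ± 3.73 and 78.5% ± 6.79 in A391T mice. The lectican sum was 516 ± 25.6 TPM in wild-type cortex and 323 ± 9.35 in cerebellum, while the link protein sum was 200.3 ± 20.5 and 274 ± 10.4 TPM. No test was made on these sums, and no library of one region reached the range of the other in either the share of *Ncan* or the ratio of link protein to lectican.

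**Figure D3:**
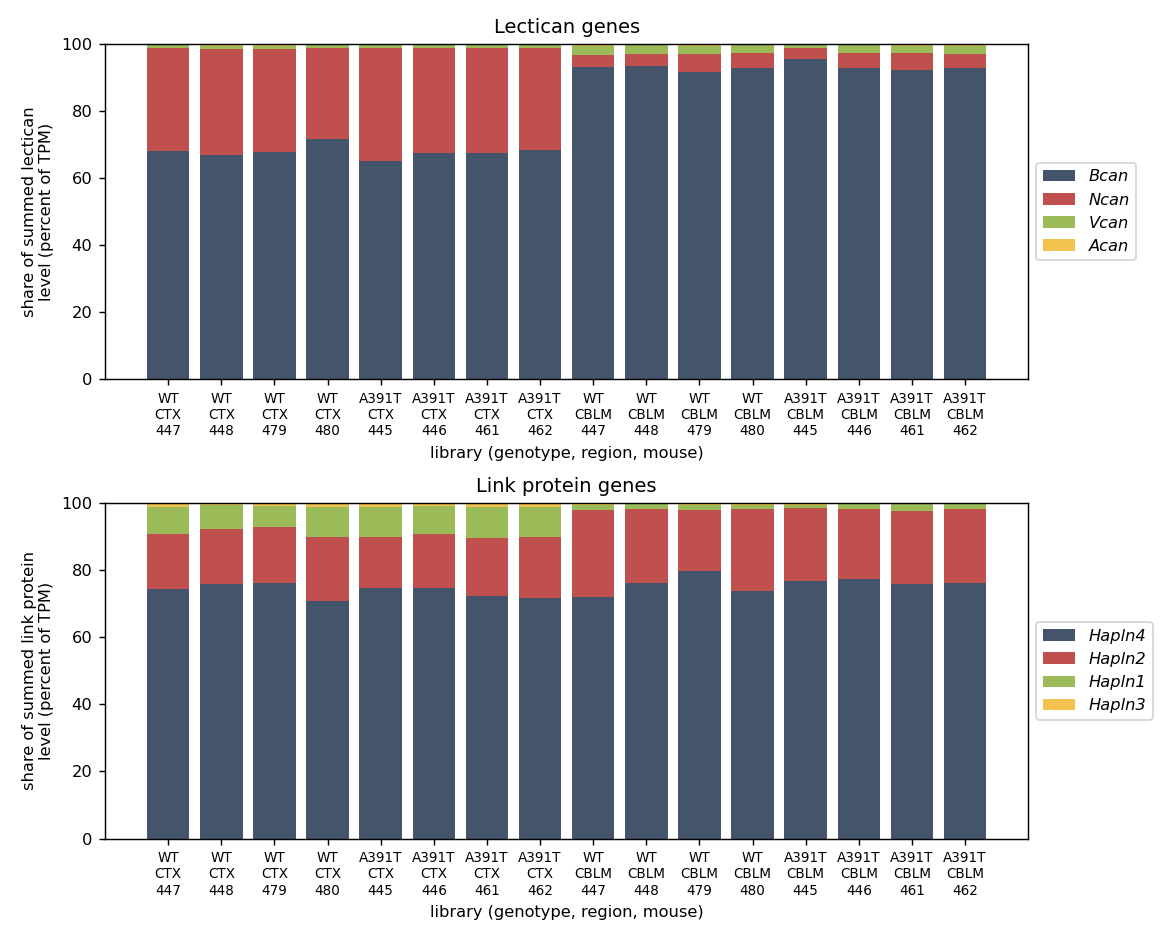
Share of each lectican gene (top) and each link protein gene (bottom) in the summed level of its family, as percent of TPM, stacked for each of the 16 libraries. *Ncan* falls from 27.0% or more in every cortex library of wild-type mice to 5.28% or less in their cerebellum, while *Hapln4* keeps 70.9% to 79.8% of link protein RNA in all wild-type libraries.

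Comparison of A391T with wild-type mice found no member past the test in either region. In cortex 0 of 9 members were called by edgeR, where 0.0126% of 15815 genes were called (748 at an unadjusted p under 0.05, and 16 by DESeq2), and in cerebellum 0 of 9, where 0% of 15668 genes were (1340 at an unadjusted p under 0.05, and 29 by DESeq2). DESeq2 also called none of the 9 in either region. At an unadjusted p under 0.05 there was 1 member in cortex, *Ncan*, and none in cerebellum. *Ncan* was higher in A391T cortex by 0.16 ± 0.07 on the log2 scale (95% interval 0.0037 to 0.32, adjusted p = 0.9997 by edgeR), its CPM did not overlap between genotypes while its TPM did, and its lowest library, 129 TPM, was CTX480. Without CTX480 the difference was 0.10 (adjusted p = 0.68). Under the sample names of the RPKM table the difference was 0.05.

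The intervals show what size of genotype effect the data could miss. In cortex those of *Bcan*, *Ncan*, *Vcan*, *Hapln1*, *Hapln2* and *Hapln4* reached no further than 0.32 from 0, short of 2-fold. The intervals of *Acan* (-0.70 to 0.12), *Hapln3* (-0.30 to 0.50) and *Tnr* (-0.75 to 0.67) were wider. In cerebellum the narrowest were *Hapln2* (-0.27 to 0.27) and *Hapln4* (-0.12 to 0.28). The widest was that of *Tnr*, which was lower in A391T cerebellum by 0.53 with an interval of -1.28 to 0.22 (adjusted p = 0.543). Its lowest library was CBLM445, and without it the difference was -0.29 with an interval of -0.80 to 0.22.

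**Figure D4:**
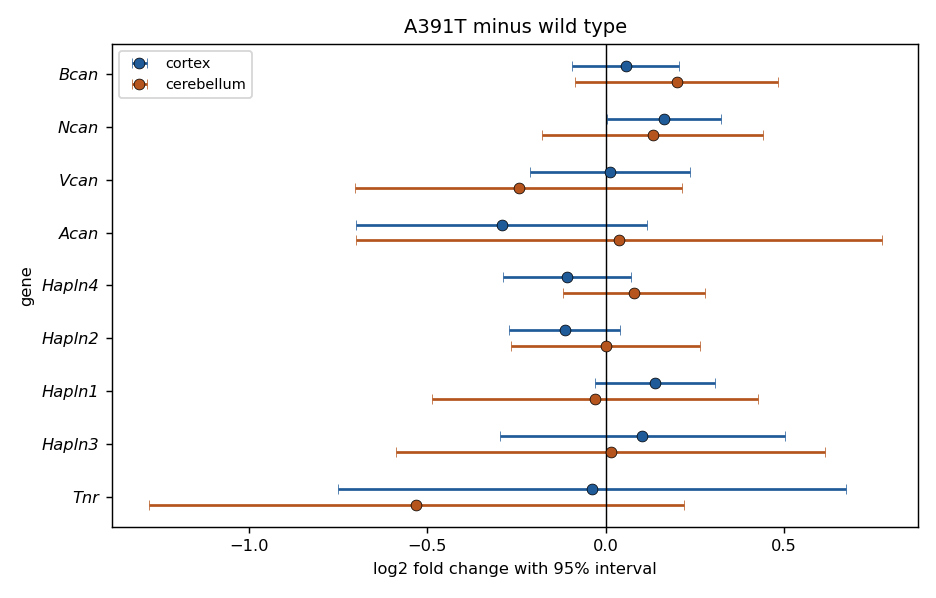
Log2 fold change of A391T over wild type for each of the 9 genes, with 95% intervals from edgeR, in cortex and in cerebellum (4 mice per genotype). All intervals but that of *Ncan* in cortex include 0, and *Tnr* and *Acan* have the widest.

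The spread of *Tnr* between mice of one group followed the length trend of the libraries. Over the 16 libraries the deviation of *Tnr* from its region mean, in log2(CPM + 1), had a Pearson correlation of 0.98 with that trend. It was 0.96 within the 8 cortex libraries, 0.99 within the 8 cerebellum libraries and 0.96 without the 2 libraries farthest from the median trend. Of the 14411 genes with a mean CPM of at least 1, 99.8% had a lower correlation than *Tnr*, and 3.33% reached 0.9. The points share library and normalization, and the values are descriptive. *Vcan* followed at 0.71, but at -0.05 without the 2 farthest libraries, and *Bcan* went the other way at -0.65 (-0.42 without them). The other 6 members lay between -0.51 and 0.36, and without the 2 farthest libraries between -0.15 and 0.56. The latter was *Hapln4*, at 0.65 within cortex and -0.49 within cerebellum. Within cortex *Vcan* was at 0.84, *Ncan* at 0.64 and *Hapln3* at -0.80, and within cerebellum *Vcan* was at 0.77 and *Bcan* at -0.91. With the trend as a covariate, a fit added after the data were seen, the regional difference of *Tnr* was -0.79 ± 0.10 in wild-type and -0.64 ± 0.07 in A391T mice (adjusted p = 1.6e-05 and 1.3e-05 by edgeR), that is nearer to each other than in the fit without it. The genotype difference of *Tnr* in cerebellum changed from -0.53 to 0.08 in that fit. The trend was computed from the same libraries and *Tnr* follows it closely, so that the small SE and adjusted p of that fit carry no separate weight. These values describe only how far *Tnr* moved with the trend.

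**Figure D5:**
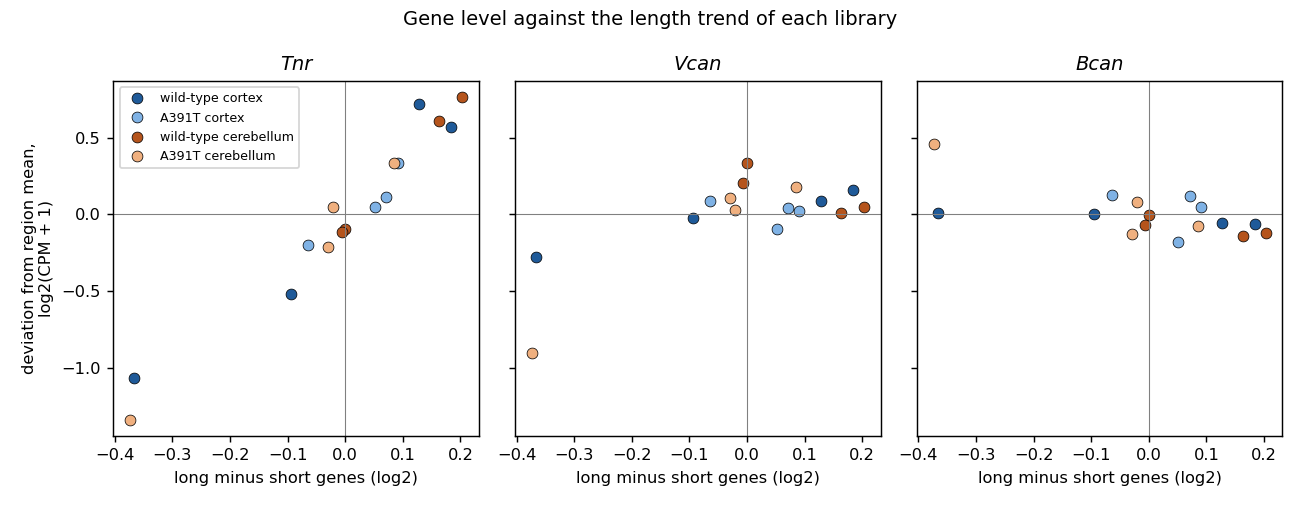
Deviation of *Tnr*, *Vcan* and *Bcan* from their region mean, in log2(CPM + 1), against the length trend of the library (median deviation of the longest decile of genes minus that of the shortest decile, log2), 1 point per library. *Tnr* follows a line across all 16 libraries, while *Vcan* stands farthest from 0, at -0.90, in CBLM445 and at 0.33 in CBLM447, whose trend is near 0.

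The genes whose deviations over the 16 libraries were most like those of *Tnr* were *Fam135b*, *Klf12* and *Dst* (r = 0.99 each), of which *Dst* codes for the very large cytoskeletal linker dystonin. For *Vcan* they were *Rgma* (0.97), *Dnm2* (0.97) and *Actn1* (0.97), and for *Bcan* *Dact3* (0.94), *Chst2* (0.94), a sulfotransferase, and *Pim3* (0.93). *Ncan* was most like *Mn1* (0.91), *Nr2e1* (0.90) and *Epha5* (0.89). *Acan* was most like *Tchh* (0.895), *Slc17a6* (0.87), a vesicular glutamate transporter, and *Baiap3* (0.86). Among the link proteins, *Hapln1* was most like *Shroom2* (0.91), *Cav2* (0.90) and *2200002K05Rik* (0.88), and *Hapln4* most like *Atcay* (0.87), *Syt2* (0.82) and *Acad12* (0.82). *Syt2*, a calcium sensor of fast synapses, reached 0.88 in cortex and 0.99 in cerebellum with *Hapln4*. Among the genes most like *Hapln2* were *Gm14446* (0.79) and *Mal* (0.78), a myelin protein, and *Hapln3* was most like *Zfp119b* (0.86), *A430046D13Rik* (0.84) and *Pigl* (0.84). No member was among the genes most like another member. All these values include CTX480 and CBLM445. Between members the highest correlation over 16 libraries was 0.68, of *Tnr* with *Vcan*, and the lowest -0.70, of *Bcan* with *Vcan*. Without those 2 libraries they were -0.04 and 0.09, so that both rest on them.

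The other genes of the pathway were taken from fixed lists and read in wild-type mice against the shares above. Of 15 genes for the making, binding and breakdown of hyaluronan, 14 were tested, and 5 were higher and 3 lower in cerebellum at an adjusted p under 0.05. *Has2*, the synthase not tested, had at most 11 reads in any library. Past both criteria *Cemip2*, a hyaluronidase of the cell surface, was higher (log2 1.41 ± 0.12), and *Hmmr* (-2.57 ± 0.41), *Susd5* (-2.11 ± 0.11), a link module protein, and *Stab1* (-1.01 ± 0.15), a scavenger receptor, were lower. The synthases *Has1* and *Has3* did not pass the test. The median log2 fold change of the 14 was 0.21.

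Of 24 matrix partners, all tested, 6 were higher and 13 lower at an adjusted p under 0.05, and 3 and 8 past both criteria, where 10.5% of all genes were higher and 14.2% lower. *Tnc*, tenascin-C, the relative of *Tnr* kept in Bergmann glia, was higher in cerebellum, at 14.0 ± 2.05 against 2.16 ± 0.222 TPM (log2 2.54 ± 0.12). *Otx2*, a homeoprotein taken up by net-bearing neurons and also a choroid plexus marker, was higher as well (5.00 ± 0.43), as were all 6 choroid plexus markers tested. *Dcn*, decorin, of vessels and meninges, rose by 1.22 ± 0.12. It is itself 1 of the 8 meninges and vessel markers, of which 5 were higher and 1 lower at an adjusted p under 0.05. The largest falls were those of *Rtn4rl2* (-7.59 ± 0.14), a relative of the Nogo receptor, *Nptx2* (-5.36 ± 0.22), a pentraxin secreted at excitatory synapses, and *Crtac1* (-3.10 ± 0.14), also named LOTUS, a blocker of the Nogo receptor. The median over the 24 was -0.38.

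Of 15 matrix proteases and inhibitors, 14 were tested, with 9 higher and 4 lower at an adjusted p under 0.05 and a median of 0.49. *Mmp3*, the one not tested, had at most 2 reads. The inhibitor *Timp4* was higher by 2.65 ± 0.11 and the inhibitor *Timp2* lower (log2 -2.04 ± 0.08). The aggrecanases *Adamts15* (1.91 ± 0.13) and *Adamts1* (1.36 ± 0.13), which cut lecticans, were higher in cerebellum. The other lectican-cutting ADAMTS genes of the list did not pass both criteria. Of 11 markers of net-bearing fast-spiking neurons, 6 were higher and 3 lower. *Pvalb* (3.39 ± 0.10) and *Syt2* (3.02 ± 0.15) were higher, and Purkinje cells and other cerebellar neurons also express them. *Lhx6* (-5.77 ± 0.17), a transcription factor of cortical interneurons, *Kcns3* (-1.93 ± 0.17) and *Erbb4* (-1.45 ± 0.10) were lower. All of these values are from edgeR with an adjusted p under 0.05.

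Levels of glial markers are given beside those of the members. All 7 markers of oligodendrocyte precursors were lower in wild-type cerebellum at an adjusted p under 0.05, with summed levels of 364 to 413 TPM in cortex and 219.8 to 275 TPM in cerebellum, while *Vcan* was higher. Of 11 markers of mature oligodendrocytes 1 was higher and 3 were lower, with overlapping sums of 4443 to 4832 and 4129 to 5857 TPM, while *Hapln2* rose in every library. Of 9 astrocyte markers 4 were higher and 3 lower, at 3707 to 4028 and 4188 to 4504 TPM. All 7 microglia markers were lower. The part of cell type makeup in the differences of the members was not tested.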

How the data were processed

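RNA of snap-frozen cortex and cerebellum from 8 mice was selected for polyA, and libraries were made with a directional kit and sequenced as 50-base reads. The authors used STAR for alignment to the mm9 build and HTSeq for counting per Ensembl gene, without strand, and they deposited the counts, which are whole numbers and not normalised. The authors also deposited an RPKM table (reads scaled by gene length and library total), of which only the names, gene lengths and column names were used. Groups were taken from the sample labels, whose names disagreed with those of the RPKM table for 8 of 16 columns. The 4 libraries of a group are separate mice.

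Counts were tested with edgeR 4.0.16 (R 4.3.3; filterByExpr, TMM normalisation, quasi-likelihood test) on the whole gene table, and p was adjusted by Benjamini-Hochberg across every gene that passed the filter. A regional call required an adjusted p under 0.05 and a 2-fold change, as in the study's methods, and a genotype or interaction call an adjusted p under 0.05. The SE was derived from the test, as the absolute log2 fold change over the square root of its F statistic. The 95% intervals were built from that SE with a t distribution. TPM was computed from the counts and the table's gene lengths and is not exact where the length in use differs. For *Vcan* the table has 16350 bases and merged exons 14467, and for *Hapln2* 3096 and 2371. The shorter length would raise the TPM of *Hapln2*, its share of the link proteins and the ratios that include it. Its place below *Tnr* in wild-type cortex therefore depends on the length used. Values per library are limited by depth. Beyond counting error they also hold differences between libraries, such as those in the length trend and in choroid plexus markers given above. The edgeR fit was tested on simulated counts, for the wild-type regional comparison and the cortex genotype comparison only. In that simulation few genes changed, all by more than 2-fold, and there was no length trend. It therefore does not cover smaller differences or that trend.

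All 9 members were named, with, for each related list, up to 3 genes in each direction that passed both criteria and changed most, and for each member the 3 genes with the highest correlation over 16 libraries. Some genes that this rule names are not reported here. *Has1*, *Has2*, *Has3* and *Mmp3* were named after their values were seen. The members and lists were chosen with earlier results of these data known.

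Labels give both regions of a mouse the same number, so the numbers pair the samples. Deviations from the group means correlated at -0.19 to 0.25 between regions of a wild-type mouse and at -0.18 to 0.13 in A391T mice. Alternatives were RLE size factors, library totals, no low-count filter, a CPM minimum, DESeq2 1.42.0, the RPKM table's names, only mice with matching names, a fit of all 16 libraries, the mouse as a block, each library left out, and, added after the data were seen, the length trend as a covariate.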

Additional observations from a re-analysis of the deposited data

How the results depend on the processing

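No regional difference changed direction under any alternative run. Of 9 members, 2 in wild-type and 3 in A391T mice passed both regional criteria, and 7 and 6 passed the adjusted p alone. Leaving out 1 library gave 2 to 3 and 2 to 4 past both, and 7 to 8 and 6 to 8 at the adjusted p alone. With only the mice whose names match, 4 wild-type members passed the adjusted p. Those fits use fewer mice. *Hapln3* passed both wild-type criteria under the RPKM table's names (-1.04) and missed 2-fold in A391T mice there (-0.96) and with library totals (-0.93). With the mouse as a replicate block, *Tnr* in A391T mice passed 2-fold (-1.07), and the block changed no other call of a member. It did so also under the RPKM table's names (-1.26) and with matching mice (-1.61). The cause of these changes was not tested. Library totals moved the median of all genes from 0.02 to 0.14 in wild-type and from 0.03 to 0.16 in A391T mice.

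The counts of 0 members between genotypes and in the interaction held under every alternative, while estimates changed sign, the largest ones included. In cortex the RPKM table's names gave -0.078 for *Bcan*, -0.10 for *Hapln3*, 0.10 for *Hapln4* and 0.15 for *Tnr*. Matching mice gave -0.021 for *Bcan*, -0.0055 for *Hapln3* and 0.11 for *Tnr*, and the length trend gave -0.031 for *Vcan*. In cerebellum the RPKM names gave -0.58 for *Acan*, -0.23 for *Ncan*, 0.087 for *Hapln2* and -0.00997 for *Hapln4*. Matching mice gave -0.63 for *Acan*, -0.094 for *Ncan* and 0.091 for *Hapln2*, and library totals -0.00053 for *Hapln3*. The length trend gave -0.018 for *Bcan*, 0.17 for *Hapln1*, -0.14 for *Hapln3* and 0.082 for *Tnr*. In the interaction the RPKM names gave -0.58 for *Acan*, 0.10 for *Hapln3* and -0.12 for *Hapln4*. Matching mice gave -0.35 for *Acan* and 0.003 for *Hapln3*, and the length trend -0.0075 for *Bcan*, 0.057 for *Ncan* and 0.17 for *Tnr*.

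Estimates that changed sign when 1 library was left out ranged in cortex from -0.082 to 0.0825 for *Vcan*, -0.041 to 0.23 for *Hapln3* and -0.29 to 0.24 for *Tnr*. In cerebellum they ranged from -0.26 to 0.21 for *Acan*, -0.24 to 0.11 for *Hapln1*, -0.089 to 0.079 for *Hapln2* and -0.20 to 0.14 for *Hapln3*. In the interaction they ranged from -0.023 to 0.21 for *Bcan*, -0.15 to 0.0698 for *Ncan* and -0.31 to 0.047 for *Hapln3*. *Hapln3* and *Acan* have the fewest reads of the 9.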

Other observations

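In A391T mice the related matrix lists gave these counts between regions. Of 14 hyaluronan genes tested 3 were higher and 3 lower in cerebellum at an adjusted p under 0.05 (edgeR), of 24 matrix partners 7 and 11, of 13 matrix proteases and inhibitors 6 and 4, and of 11 markers of net-bearing neurons 6 and 3. Of all genes tested there 31.6% were higher and 31.3% lower. Tenascin-R RNA relative to summed lectican RNA (TPM) was 7.30% ± 4.01 in wild-type cortex, 9.54% ± 3.33 in wild-type cerebellum, 6.78% ± 1.19 in A391T cortex and 6.17% ± 3.06 in A391T cerebellum (SD, n = 4). These ranges overlapped in all groups.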
